A study of Mus musculus with 17 samples.

Results

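The genes described here are 38 genes of the cell division cycle, taken by symbol from the deposited gene tables of a study of the mouse cerebral cortex. All 38 were found among the 22462 genes of the tables, and all 38 passed the filter on low values used for testing. By role they fall into 17 genes of mitosis and the G2/M step, 14 genes of S phase and the G1/S step, 3 D-type cyclins and 4 inhibitors of cyclin-dependent kinases. The study sequenced polyadenylated RNA of 17 libraries from cortex of mice whose strain is labelled FVN/Swiss. The oligodendrocyte lineage was purified at 3 stages (precursor cells, newly formed and myelinating oligodendrocytes), beside endothelial cells, microglia, neurons and astrocytes. Each of these 7 types has 2 libraries, and whole cortex that was not sorted has 3. No group carries a treatment or an engineered allele in its labels, and ages, sort markers and animal numbers are not given in the sources used here. The comparisons ask which cell types carry RNA of the division machinery, and how that RNA differs between stages of the oligodendrocyte lineage.

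In dividing cells D-type cyclins bind kinases that inactivate the retinoblastoma protein, which frees E2F factors to switch on the genes of S phase. The MCM proteins then open replication origins, and later the cyclins of the A and B class, the Aurora and Polo kinases and the spindle checkpoint carry the cell through mitosis. Inhibitors such as Cdkn1a, Cdkn1b and Cdkn1c hold the kinases back and are often high in cells that have left the cycle. In the postnatal brain oligodendrocyte precursors are known to divide and to leave the cycle as they differentiate, whereas neurons are postmitotic.

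Levels are given as FPKM, which divides reads by transcript length and by the mapped reads of the library, so that levels of different genes are on a scale per length. The deposited tables hold no value under 0.1 FPKM, and a gene listed at 0.1 is called at the floor here. A difference is a limma estimate on the log2(FPKM + 1) scale, which understates the change of low genes, with its standard error and a p-value adjusted by Benjamini-Hochberg over the 14011 genes tested. A gene is called higher or lower when the adjusted p is under 0.05 and the log2 difference at least 1. Means are given ± SD (n = 2 for a purified type, n = 3 for whole cortex). Nothing in the labels ties replicate libraries to separate animals, and the p-values therefore cover the spread of these libraries alone, which may be technical. In bulk RNA, fewer dividing cells and less RNA per dividing cell cannot be told apart. Each purified type had the highest sum of its own markers. In the other purified libraries the sums of the marker lists for astrocytes, neurons, microglia and endothelial cells were at most 12.3%, 6.87%, 4.36% and 0.736% of the level in their own type. The lists for precursors, newly formed and myelinating oligodendrocytes reached 19.4%, 36.2% and 30.4%. Depth is unknown, because the tables hold no read counts and whole reads could not be recovered from them.

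The RNA of the mitotic genes was concentrated in oligodendrocyte precursors, endothelial cells and astrocytes among the purified types, and it was nearly absent from myelinating oligodendrocytes. The 17 mitotic genes summed to 106 and 91.7 FPKM in the precursor libraries, 62.4 and 65.4 in endothelial cells and 33.4 and 61 in astrocytes. Neurons had 16.7 and 16.8 FPKM, microglia 18.2 and 5.27, and newly formed oligodendrocytes 12.3 and 8.87. In myelinating oligodendrocytes the sum was 3.67 and 2.86 FPKM, with 12 and 13 of the 17 genes at the floor. Whole cortex lay at 79.8, 74.4 and 102 FPKM, above every purified library other than those of the precursors. The 14 S phase genes were spread more widely. They summed to 97.8 and 63.0 FPKM in microglia and 64.35 and 96.0 in astrocytes. Neurons had 46.4 and 53.5 FPKM of them, and myelinating oligodendrocytes still 29.4 and 27.1. Among the 7 purified types precursors had the highest mean for 25 of the 38 genes, endothelial cells for 9, astrocytes for 2, and microglia and neurons for 1 each. Myelinating oligodendrocytes had the lowest mean for 32 of the 38, including all 17 mitotic genes and all 3 D-type cyclins.

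**Figure D1:**
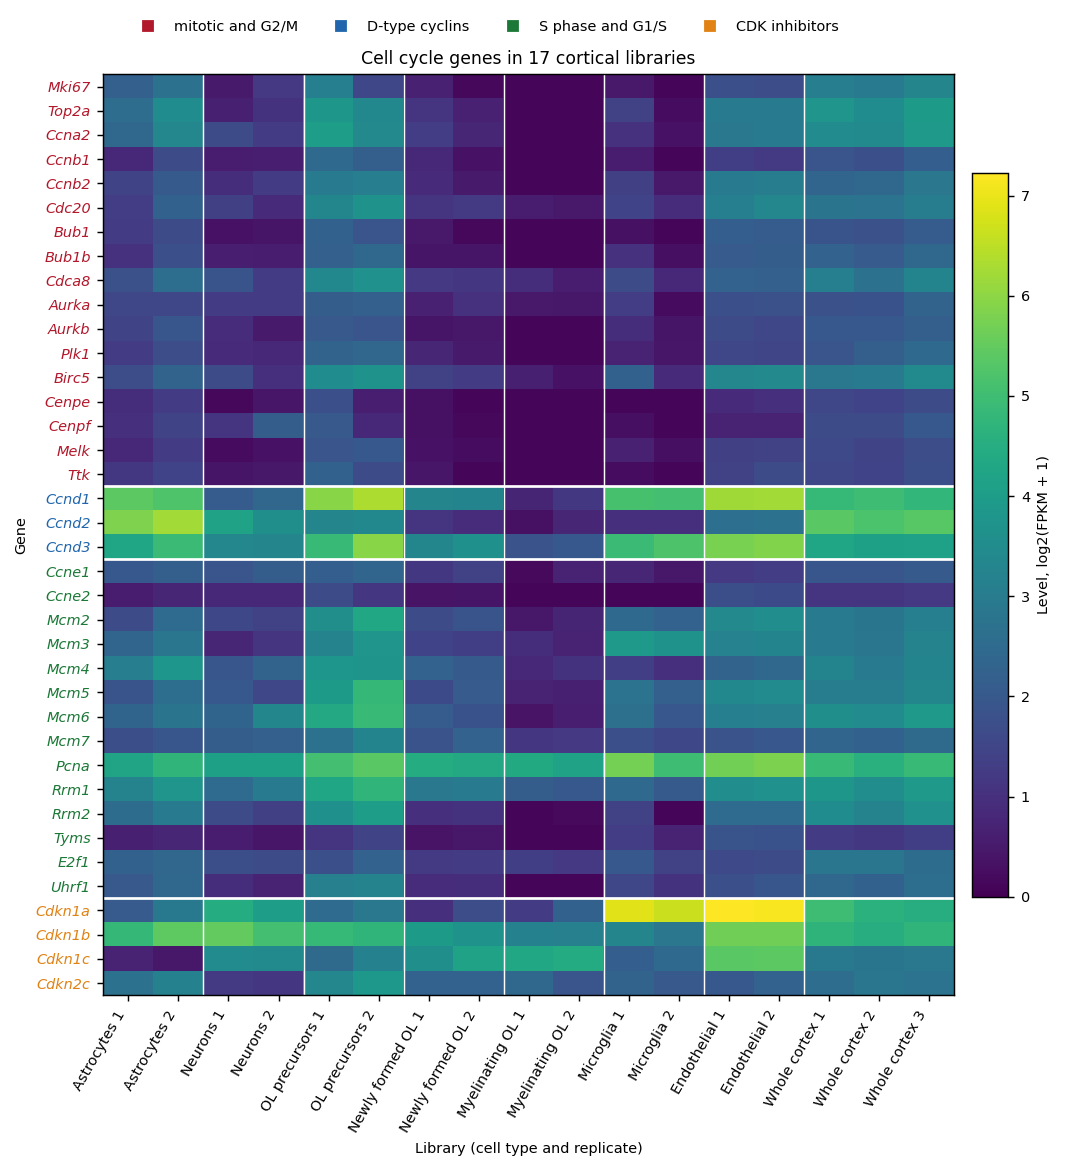
Level of each of the 38 cell cycle genes (rows, coloured and grouped by role) in each of the 17 libraries (columns), as log2(FPKM + 1) on the colour scale. OL stands for oligodendrocyte. The mitotic block is darkest in the myelinating libraries and lighter in the precursor and whole cortex libraries. The inhibitors Cdkn1a and Cdkn1c follow other columns.

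The count of genes called higher was also largest in precursors and next in endothelial cells, and the count called lower was largest in myelinating oligodendrocytes. Against the mean of the other 6 purified types, 27 of the 38 genes were higher in precursors, where 16.3% of all genes tested were, and 1 was lower, against 2.3% of all genes. The median log2 difference of the 38 genes was 1.38 in precursors, beside 0.34 over all genes tested. Endothelial cells had 18 higher, against 18.5% of all genes, and 0 lower, against 18%, with a median of 0.83 beside -0.04. Astrocytes had 7 higher, close to the 17.5% of all genes, and 2 lower, against 13.6%. Without astrocyte replicate 2 the higher count was 4, when Ccna2, Mcm4 and Rrm2 were no longer called (0.75, 1.00 and 0.91). In myelinating oligodendrocytes 24 genes were lower, against 31% of all genes, and 1 was higher, against 6.07%. Their median was -1.20 beside -0.60, so that all genes together also leaned down in that type.

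The remaining types had fewer calls. Microglia had 8 genes lower, against 28.1% of all genes, and 3 higher, against 15.2%. The lower count was 13 without microglia replicate 1 and 5 without replicate 2, when Mki67, Top2a and Rrm2 were at -0.83, -0.50 and -0.54 and not called. Neurons had 5 lower, against 10.3%, and 2 higher, against 18.9%. The higher call of Cdkn1b in neurons was not kept throughout. Its difference was 0.79 without neuron replicate 1 and 0.91 with median-of-ratios scaling. Without astrocyte replicate 1, precursor replicate 2, newly formed replicate 2 or microglia replicate 2 it was 0.95 to 0.99. All of these lie under the limit of 1 for a call. Newly formed oligodendrocytes had 5 lower, against 9.5%, and 0 higher, against 9.06%, and the lower count was 8 without newly formed replicate 1.

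A stricter comparison set each type against every other type in turn. Precursors had 3 of the 38, namely Ccnb1, Mcm6 and Cdca8, against 1.49% of all genes, with endothelial cells next for all of them on the log2(FPKM + 1) scale. Astrocytes had Ccnd2, against 3.66%, and endothelial cells had Cdkn1c, against 6.29%. Neurons, newly formed oligodendrocytes, myelinating oligodendrocytes and microglia had 0, where 5.7%, 0.457%, 0.699% and 7.03% of all genes were called. The 3 precursor calls rested on single libraries. The count was 0 without either endothelial library, 1 without precursor replicate 2 or astrocyte replicate 1 and 5 without precursor replicate 1. The astrocyte call of Ccnd2 was kept in every leave-one-out fit.

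Among the mitotic genes, Mki67, the proliferation marker Ki-67, was at 7.72 and 1.88 FPKM in the precursor libraries. Astrocytes had 3.68 and 5.65, endothelial cells 2.37 and 2.29, neurons 0.423 and 1.28, newly formed oligodendrocytes 0.568 and 0.123, and microglia 0.403 and 0.1 FPKM. Both myelinating libraries were at the floor, and whole cortex held 7.56, 6.69 and 8.82 FPKM. Both astrocyte libraries fell between the 2 precursor libraries, so that these types overlapped, and whole cortex reached the upper end of the precursor range. The gene was called higher in precursors (log2 difference 1.34, SE 0.29, adjusted p = 0.00144 by limma) and in astrocytes (1.52, SE 0.29, adjusted p = 3.71e-04). Without precursor replicate 1 the precursor difference was 0.54 (limma adjusted p = 0.0866) and not called.

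Top2a, the topoisomerase that untangles chromosomes, had a tighter pair of precursor libraries. It was at 13.2 and 9.28 FPKM in precursors, 5.05 and 10.3 in astrocytes, and 6.77 and 7.05 in endothelial cells. Neurons had 0.557 and 1.08, newly formed oligodendrocytes 1.15 and 0.576, microglia 1.67 and 0.170 FPKM, and both myelinating libraries the floor. Precursors and astrocytes overlapped, and no neuron, newly formed or microglia library reached the lowest astrocyte one. The log2 difference was 2.14 in precursors (SE 0.27, limma adjusted p = 1.30e-05), 1.43 in endothelial cells (SE 0.27, adjusted p = 2.71e-04) and 1.51 in astrocytes (SE 0.27, adjusted p = 1.98e-04).

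In precursors 15 of the 17 mitotic genes were called higher than the mean of the other types, beside 16.3% of all genes tested. Ccna2, the A-type cyclin, was at 12.3 ± 4.03 FPKM there (log2 difference 2.17, SE 0.24, limma adjusted p = 4.24e-06). Cdc20, the activator of the anaphase-promoting complex, was at 10.4 ± 2.05 FPKM (2.00, SE 0.21, adjusted p = 2.26e-06). Ccnb1, the main B-type cyclin, was at 4.57 and 3.53 FPKM in precursors, with endothelial cells at 1.55 and 1.35 and astrocytes at 0.787 and 2.11 FPKM. Its precursor libraries lay above every other library, those of whole cortex included, which had 2.72, 2.40 and 3.51 FPKM. Against endothelial cells, the next type, it was higher by 1.04 (SE 0.24, one-sided limma adjusted p = 0.0166). Cdca8, the borealin subunit of the chromosomal passenger complex, was at 9.43 and 11.7 FPKM against 3.79 and 3.60 in endothelial cells and 2.45 and 5.11 in astrocytes, whose mean FPKM was slightly the higher of these (against endothelial cells 1.29, SE 0.31, one-sided limma adjusted p = 0.0248). Both calls against each type were lost when low genes were not filtered out, with median-of-ratios scaling and without several single libraries. Cenpe and Cenpf, motor and scaffold proteins of the kinetochore, were the 2 mitotic genes not called in precursors. Cenpe was at 2.38 and 0.528 FPKM and Cenpf at 3.04 and 0.765 FPKM in the precursor libraries, a wide spread shared with Mki67. Cenpf was also the 1 mitotic gene with its highest purified mean in neurons, at 1.17 and 3.42 FPKM.

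Endothelial cells resembled precursors for part of the mitotic list, with 7 of 17 called higher, beside 18.5% of all genes tested. Ccnb2, a B-type cyclin, was at 6.68 and 7.16 FPKM in endothelial cells and at 6.98 and 7.58 in precursors, so that the libraries of these types overlapped. It was above the mean of the other types in endothelial cells by 1.71 (SE 0.20, limma adjusted p = 3.22e-06) and in precursors by 1.78 (SE 0.20, adjusted p = 4.86e-06). Birc5, the survivin subunit of the passenger complex, was at 9.25 and 9.60 FPKM in endothelial cells and 10.4 and 12.2 in precursors. Bub1, a spindle checkpoint kinase, was at 3.47 and 3.27 FPKM and 3.76 and 2.78 FPKM in the same order. The endothelial libraries also held RNA of mural cells, the contractile cells on vessels. The 5 mural markers summed to 230 and 270 FPKM there, 100 to 128 in whole cortex and at most 39.2 in the other purified libraries, and none was at the floor in the endothelial libraries. The 2 erythroid markers summed to 639 and 782 FPKM in the same libraries. Their part in the endothelial levels was not tested.

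Most promoters of the mitotic genes held the sequence elements known for this class. In human and mouse cells the DREAM complex and B-MYB act at a cell cycle homology region, CHR, of which TTTGAA is the common form and TTCGAA a variant, and NF-Y binds CCAAT boxes nearby. Windows of 300 bases, from 250 before the start to 50 after it, were searched on both strands for these strings in RefSeq promoters of build GRCm38.p6. None of the strings searched here contains another. Promoters were at hand for 31 of the 38 genes, 36 in all, among 32851 of all genes. A CHR string was present in 11 of 15 mitotic promoters, in 2 of 14 promoters of S phase genes and in 0 of 5 promoters of inhibitors, against 19.2% of all promoters. CCAAT was present in 13 of 15 mitotic and 11 of 14 S phase promoters, against 37.4% of all. A match is a string in a window and not evidence of binding. The promoters of Ccnb2, Cdc20 and Plk1, a Polo kinase, are shown because they hold both elements, in 200 bases ending 50 bases after the start, with CHR and CCAAT strings of the printed strand in capitals.
Ccnb2 promoter, chr9:70421505-70421704, minus strand: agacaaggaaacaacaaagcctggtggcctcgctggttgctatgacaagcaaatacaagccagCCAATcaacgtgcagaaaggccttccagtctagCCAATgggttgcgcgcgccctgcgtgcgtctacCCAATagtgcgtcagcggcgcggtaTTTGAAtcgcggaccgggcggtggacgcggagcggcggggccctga
Cdc20 promoter, chr4:118437294-118437493, minus strand: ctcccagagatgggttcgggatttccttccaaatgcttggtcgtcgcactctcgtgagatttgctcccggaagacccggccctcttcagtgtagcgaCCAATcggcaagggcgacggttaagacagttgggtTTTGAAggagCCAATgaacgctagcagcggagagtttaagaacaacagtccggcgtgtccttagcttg
Plk1 promoter, chr7:122159285-122159484, plus strand: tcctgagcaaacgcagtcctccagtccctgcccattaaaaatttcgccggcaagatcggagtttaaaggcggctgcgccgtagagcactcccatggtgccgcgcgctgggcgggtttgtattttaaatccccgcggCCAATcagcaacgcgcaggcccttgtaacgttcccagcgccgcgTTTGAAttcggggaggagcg

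The S phase genes were highest in precursors for 9 of 14 and called higher there for 9 of 14, beside 16.3% of all genes tested. Mcm6, Rrm2 and Mcm5 had the largest differences. The MCM genes encode the helicase that is loaded at replication origins, and all 6 were called higher in precursors, Mcm7 (1.19) not with median-of-ratios scaling (0.89) or without precursor replicate 2 (0.92). Mcm5 was at 14.4 and 26.9 FPKM in precursors, 9.37 and 10.2 in endothelial cells, 5.68 and 3.61 in microglia, and 2.68 and 5.11 in astrocytes. Neurons had 2.99 and 1.92, newly formed oligodendrocytes 2.09 and 3.23, and myelinating oligodendrocytes 0.614 and 0.539 FPKM. Both precursor libraries were above, and both myelinating libraries below, every other purified library. The log2 difference in precursors was 2.30 (SE 0.23, limma adjusted p = 1.37e-06), and in myelinating oligodendrocytes -2.03 (SE 0.23, adjusted p = 2.39e-06).

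Mcm6 was the S phase gene that set precursors apart from each other type. It was at 19.7 and 28.6 FPKM there, against 7.76 and 7.91 in endothelial cells and 4.05 and 8.98 in neurons. The log2 difference was 2.41 against the mean of the other types (SE 0.24, limma adjusted p = 1.20e-06) and 1.49 against endothelial cells (SE 0.31, one-sided limma adjusted p = 0.00875). The call against each type was lost without precursor replicate 2 (1.23, adjusted p = 0.12) and without either endothelial library, where the adjusted p was 0.0594 and 0.0527. Rrm2, the inducible subunit of ribonucleotide reductase, was at 11.3 and 15.2 FPKM in precursors, 4.83 and 6.73 in astrocytes, 4.75 and 4.76 in endothelial cells and 2.20 and 1.58 in neurons. It was at 0.984 and 1.07 in newly formed cells, 0.1 and 0.125 in myelinating cells and 1.68 and 0.1 FPKM in microglia. The precursor libraries were the highest of all 14 purified ones (log2 difference 2.36, SE 0.24, limma adjusted p = 1.47e-06). Rrm1, the large subunit of the same enzyme, was at 22.0 ± 4.98 FPKM in precursors and still at 3.18 ± 0.316 in myelinating cells. Uhrf1, which recruits the maintenance methyltransferase to replicated DNA, was at 7.87 and 8.32 FPKM in precursors and at the floor in both myelinating libraries (precursor log2 difference 1.97, SE 0.14, limma adjusted p = 6.32e-08).

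The 6 MCM subunits, which work as a hexamer, were not ranked alike in every cell type. In microglia Mcm3 was at 13.8 and 11.9 FPKM, the highest purified mean though overlapping the 8.46 and 12.6 of precursors, while Mcm4 was at 1.55 and 1.01 FPKM, below every library of neurons, precursors, endothelial cells and astrocytes. Mcm3 was called higher in microglia (log2 difference 1.70, SE 0.17, limma adjusted p = 3.87e-07) and Mcm4 lower (-1.29, SE 0.17, adjusted p = 9.16e-06). Mcm2, Mcm5, Mcm6 and Mcm7 were not called in that type, with differences from -0.35 to 0.15. In astrocytes the order was the other way, with Mcm4 at 7.52 and 12.8 FPKM and called higher (1.35, SE 0.17, limma adjusted p = 9.39e-06), or 1.00 and not called without astrocyte replicate 2, and Mcm3 at 4.12 and 6.14 FPKM and not called. FPKM is per length, so these are levels on a common scale. Mcm3 and Mcm4 share no exon with another gene in the GENCODE M21 annotation. Mcm7 does, with Ap4m1 and Cops6 on the opposite strand, and its reads cannot be told apart from theirs without strand.

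Pcna, the sliding clamp of DNA polymerase that also serves DNA repair, was the S phase gene least tied to the mitotic list. It was at 50.4 and 54.7 FPKM in endothelial cells, 51.1 and 30.8 in microglia, 32.2 and 40.3 in precursors and 17.7 and 25.7 in astrocytes. Newly formed oligodendrocytes had 21.4 and 19.5, myelinating oligodendrocytes 19.8 and 17, and neurons 16.3 and 16.4 FPKM. No library was near the floor, and the myelinating libraries overlapped those of newly formed cells and astrocytes. It was called higher in endothelial cells (log2 difference 1.10, SE 0.17, limma adjusted p = 5.67e-05), a call lost under both rescalings of the libraries (0.91 each), and in no other type. The mouse annotation names processed copies of Pcna, Ccnb1, Ccnb2, Ccnd3 and Tyms, whose reads the authors' mapping could have split with the genes. Tyms, thymidylate synthase, was at 2.7 and 2.53 FPKM in endothelial cells and at most 1.80 in any other purified library (endothelial log2 difference 1.18, SE 0.13, limma adjusted p = 1.25e-06). E2f1, the activator of this programme, varied less than its class, from 1.38 ± 0.0713 FPKM in newly formed oligodendrocytes to 3.95 ± 0.336 in astrocytes, and was called in no purified type.

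Consensus E2F strings were found in some S phase promoters. The strings TTTCCCGC and TTTGGCGC and also TTTCGCGC, on either strand, were present in 5 of 14 promoters of S phase genes, in 0 of 15 mitotic promoters and in 1.84% of all promoters. The genes were Mcm3, Mcm5, Mcm6, Mcm7 and Uhrf1, and Pcna and E2f1 had none in this window. The promoters of Mcm6 and Mcm3 are shown because these genes led in precursors and in microglia, respectively, with E2F strings of either strand in capitals, of which the first pair in Mcm6 overlap.
Mcm6 promoter, chr1:128359656-128359855, minus strand: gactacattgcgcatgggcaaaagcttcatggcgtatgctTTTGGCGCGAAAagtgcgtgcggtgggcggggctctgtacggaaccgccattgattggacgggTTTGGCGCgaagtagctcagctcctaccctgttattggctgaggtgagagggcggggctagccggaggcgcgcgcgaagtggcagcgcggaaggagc
Mcm3 promoter, chr1:20820263-20820462, minus strand: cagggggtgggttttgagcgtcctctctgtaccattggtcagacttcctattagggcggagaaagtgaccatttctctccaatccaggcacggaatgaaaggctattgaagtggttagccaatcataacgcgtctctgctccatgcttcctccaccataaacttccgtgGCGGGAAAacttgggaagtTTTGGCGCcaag

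**Figure D2:**
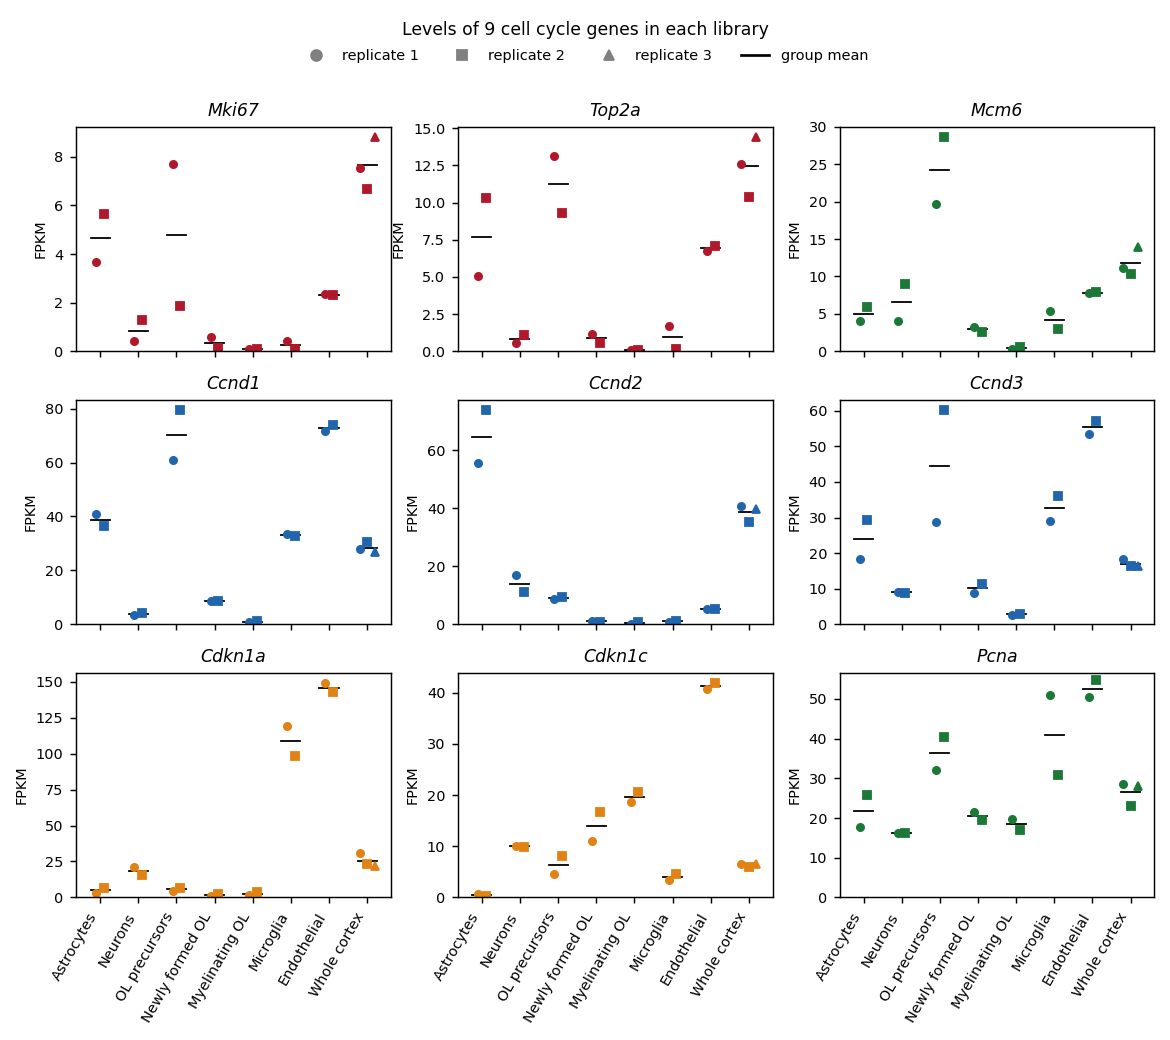
FPKM of 9 cell cycle genes in each library, with points by replicate and a bar at the mean of the group, on linear axes from 0. OL stands for oligodendrocyte. The D-type cyclins and inhibitors differ in which type is high, with Ccnd2 at 55.5 and 73.8 FPKM in astrocytes and Cdkn1a at 149 and 143 FPKM in endothelial cells.

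The 3 D-type cyclins, which couple growth signals to the cycle, were divided among the cell types. Ccnd1 was at 71.8 and 74.0 FPKM in endothelial cells, 60.9 and 79.4 in precursors, 41.0 and 36.6 in astrocytes and 33.7 and 32.8 in microglia. Newly formed oligodendrocytes had 8.71 and 8.51, neurons 3.31 and 4.18 and myelinating oligodendrocytes 0.689 and 1.24 FPKM. Endothelial cells and precursors overlapped, and a gap separated the first 4 types from the last 3. It was called higher in endothelial cells (log2 difference 2.37, SE 0.13, limma adjusted p = 8.32e-10), precursors (2.29, SE 0.13, adjusted p = 5.92e-09), astrocytes (1.33, SE 0.13, adjusted p = 7.74e-07) and microglia (1.08, SE 0.13, adjusted p = 3.85e-06). The microglia call was lost when libraries were scaled to a common sum of FPKM (0.52).

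Ccnd2 was the gene of the list that marked astrocytes. Its astrocyte libraries were at 55.5 and 73.8 FPKM, those of neurons at 16.9 and 11.1, precursors at 8.69 and 9.26, and endothelial cells at 5.25 and 5.42. Newly formed and myelinating oligodendrocytes and microglia were at 0.256 to 1.14 FPKM. Whole cortex, at 41.0, 35.4 and 39.7 FPKM, was above all purified types other than astrocytes. Astrocytes stood apart from neurons, the next type, by 2.14 (SE 0.21, one-sided limma adjusted p = 3.70e-06). Against the mean of the other types the difference was 3.96 (SE 0.16, limma adjusted p = 1.00e-10), and in neurons it was 1.46 (SE 0.16, adjusted p = 1.72e-06), the direction opposite to that of Ccnd1 in neurons (-2.26, SE 0.13, adjusted p = 2.64e-09). The antisense genes Gm43126 and 9330179D12Rik overlap 372 and 368 bases of Ccnd2 exons, and the libraries are not stated to keep strand. Of the 38 genes 11 overlap exons of a gene on the opposite strand. The longest overlap is 1100 bases, of Ccnd1 with LTO1. Ccne2, Ccna2, Ccnd3 and Cdca8 share 609, 510, 361 and 232 exon bases with protein-coding genes on the opposite strand.

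Ccnd3 was at 53.6 and 57.2 FPKM in endothelial cells, 28.9 and 60.2 in precursors, 29.1 and 36.2 in microglia and 18.4 and 29.3 in astrocytes. Newly formed oligodendrocytes had 8.89 and 11.3, neurons 9.17 and 8.78 and myelinating oligodendrocytes 2.63 and 2.95 FPKM. The precursor libraries spanned the endothelial and the microglia range. It was called higher in endothelial cells (log2 difference 1.85, SE 0.21, limma adjusted p = 2.09e-06) and in precursors (1.39, SE 0.21, adjusted p = 7.29e-05), the latter call lost without precursor replicate 2 (0.87).

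Microglia differed from all other groups in which Ccnd3 transcript the authors' isoform estimates assigned. The RefSeq isoform NM_001081636 was estimated at 11.7 and 13.9 FPKM in the microglia libraries, 40.3% and 38.4% of the gene. In the other 15 libraries it ran from 0.1 to 0.409 FPKM. The isoform NM_007632 carried 98.9% and 99.3% of the gene in astrocytes and 98.7% and 99.2% in endothelial cells, against 53.8% and 61.4% in microglia. GENCODE M21 pairs NM_001081636 with a transcript that starts on chromosome 17 at position 47505051 of GRCm38, 88.4 kb upstream of the start of NM_007632 at 47593470. NM_001081635 is paired with the same transcript and was at most 1.70 FPKM in any library. This difference was seen in the isoform values and not tested. Because NM_001081635 shares the upstream transcript, the start of NM_001081636 rests on this pairing alone. Both promoters are shown since the paired transcripts start apart, each with 300 bases. The string AGGAAGT, a core recognised by ETS factors such as PU.1 in macrophages, was looked up after these values were seen. The upstream promoter holds 2 matches, given in capitals, and the downstream promoter holds none. The string occurs in 9.35% of all promoters, and also in those of Mcm3 and Pcna among the 38 genes.
Ccnd3 upstream promoter, chr17:47504801-47505100, plus strand: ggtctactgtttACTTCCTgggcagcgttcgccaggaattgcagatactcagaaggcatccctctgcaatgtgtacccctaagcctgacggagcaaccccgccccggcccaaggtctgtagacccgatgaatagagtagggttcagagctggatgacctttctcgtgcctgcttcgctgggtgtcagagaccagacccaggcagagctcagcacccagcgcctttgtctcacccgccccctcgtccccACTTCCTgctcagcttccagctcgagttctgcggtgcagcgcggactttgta
Ccnd3 downstream promoter, chr17:47593217-47593516, plus strand: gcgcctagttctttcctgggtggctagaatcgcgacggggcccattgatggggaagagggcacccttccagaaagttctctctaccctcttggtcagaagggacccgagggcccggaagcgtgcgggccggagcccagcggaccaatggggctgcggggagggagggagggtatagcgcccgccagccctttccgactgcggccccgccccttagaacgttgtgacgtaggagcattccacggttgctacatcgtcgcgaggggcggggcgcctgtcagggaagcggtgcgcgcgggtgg

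**Figure D3:**
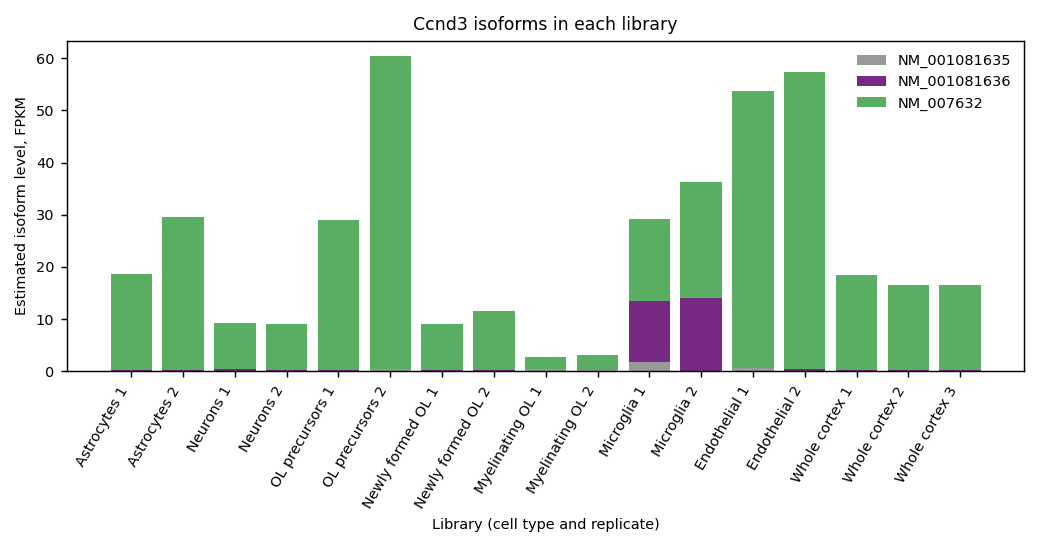
Stacked bars of the authors' estimated FPKM for the 3 RefSeq isoforms of Ccnd3 in each of the 17 libraries, from 0 on a linear axis. OL stands for oligodendrocyte. NM_001081636 is visible only in the 2 microglia bars, at 11.7 and 13.9 FPKM.

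Of the 4 inhibitors of cyclin-dependent kinases, 3 had their highest mean in endothelial cells and 1 in precursors. Cdkn1a, the p53 target p21, was at 149 and 143 FPKM in endothelial cells and 119 and 98.6 in microglia. Neurons had 21 and 15.3, astrocytes 3.21 and 6.64, precursors 4.72 and 6.41, myelinating oligodendrocytes 1.38 and 3.73, and newly formed oligodendrocytes 0.987 and 2.24 FPKM. Endothelial cells and microglia did not overlap with each other or with any other type. The log2 difference was 3.98 in endothelial cells (SE 0.26, limma adjusted p = 5.47e-09) and 3.48 in microglia (SE 0.26, adjusted p = 2.18e-08). It was negative and called in astrocytes (-1.50), precursors (-1.26), newly formed cells (-2.85) and myelinating cells (-2.38).

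Endothelial cells had high levels of the whole Cdkn1 family beside those of the mitotic genes. Cdkn1b, p27, was at 49.7 and 49.99 FPKM in endothelial cells, 43.9 and 32.5 in neurons, 27.0 and 42.5 in astrocytes and 27.5 and 25.4 in precursors. Newly formed cells had 14.4 and 12.1, myelinating cells 8.03 and 7.84 and microglia 8.86 and 6.29 FPKM. The endothelial libraries were highest (log2 difference 1.46, SE 0.16, limma adjusted p = 1.83e-06), while neurons and astrocytes overlapped. Cdkn1b was lower in microglia (-1.56, SE 0.16, adjusted p = 8.17e-07) and in myelinating oligodendrocytes (-1.47, SE 0.16, adjusted p = 2.13e-06), where median-of-ratios scaling gave -0.97. Cdkn1c, p57, was at 40.6 and 41.8 FPKM in endothelial cells, 18.6 and 20.6 in myelinating oligodendrocytes, 11.1 and 16.8 in newly formed ones, 10.1 and 9.94 in neurons and 4.67 and 8.01 in precursors. Microglia had 3.48 and 4.50 and astrocytes 0.604 and 0.371 FPKM. Endothelial cells were above the next type by 1.04 (SE 0.22, one-sided limma adjusted p = 0.00258), a call lost with median-of-ratios scaling (0.43) and without myelinating replicate 1 (0.97). Astrocytes had the lowest Cdkn1c of all types (-3.14, SE 0.17, limma adjusted p = 1.35e-09). An antisense gene overlaps 625 bases of Cdkn1c exons.

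Cdkn2c, the INK4 family inhibitor p18, was the 1 inhibitor with its highest level in precursors. It was at 9.10 and 13.4 FPKM in precursors, 5.54 and 8.07 in astrocytes, 3.84 and 3.81 in newly formed and 4.38 and 2.73 in myelinating oligodendrocytes. Microglia had 3.95 and 3.06, endothelial cells 2.95 and 3.82 and neurons 1.32 and 1.21 FPKM. Both precursor libraries were above, and both neuron libraries below, every other purified library. It was called higher in precursors (log2 difference 1.45, SE 0.17, limma adjusted p = 8.33e-06) and lower in neurons (-1.36, SE 0.17, adjusted p = 8.64e-06). Over the 7 purified type means on the log2 scale, the mitotic genes had correlations with Mki67 from 0.69 to 0.99 with a median of 0.89. The S phase genes had a median of 0.72, from Pcna at 0.32 to Rrm2 at 0.95, and the D-type cyclins a median of 0.72. The inhibitors ran from Cdkn1c at -0.40 over Cdkn1a at 0.02 to Cdkn1b at 0.75. Cenpe, Aurkb, Top2a and Ccna2 were the genes most like Mki67, at 0.99, 0.97, 0.96 and 0.96. These values are descriptions over 7 points that share libraries.

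Along the oligodendrocyte lineage most of the division genes were lower at the first step. Fewer were called at the second, near the share of all genes. Between precursors and newly formed oligodendrocytes 30 of the 38 genes were lower, against 18.4% of all genes, and 1 was higher, against 5.25%. The median log2 difference was -1.72, beside -0.35 over all genes. The lower genes were 16 of 17 mitotic genes, 9 of 14 S phase genes, all 3 D-type cyclins and the inhibitors Cdkn1a and Cdkn2c. The largest were Ccnd1 (-2.88, SE 0.17, limma adjusted p = 1.88e-08), Rrm2 (-2.80, SE 0.31, adjusted p = 6.23e-06) and Top2a (-2.71, SE 0.35, adjusted p = 2.52e-05). Mcm6, Ccna2 and Mcm5 followed at -2.67, -2.65 and -2.52. Cdkn1c moved the other way (1.04, SE 0.22, limma adjusted p = 0.00141), a call lost at a common sum of FPKM and without precursor replicate 1 or newly formed replicate 2 (0.93, 0.70 and 0.76). The lower calls of Cenpf and Ccne2 were lost without precursor replicate 1 (-0.58 and -0.76), and that of Cdkn1a without newly formed replicate 1 (-1.01, limma adjusted p = 0.0571). Cenpe, Ccne1, Mcm7, Pcna, Tyms, E2f1 and Cdkn1b were not called, at -0.77 to -0.96.

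From newly formed to myelinating oligodendrocytes 6 of the 38 genes were lower, against 19.9% of all genes, and 0 were higher, against 2.13%. The median log2 difference was -0.48, beside -0.38 over all genes. The 6 were Ccnd1 (-2.30, SE 0.17, limma adjusted p = 4.25e-07), Ccnd3 (-1.54, SE 0.28, adjusted p = 5.02e-04), Mcm6 (-1.47, SE 0.31, adjusted p = 0.00163), Mcm4, Mcm5 and Mcm2. With median-of-ratios scaling Mcm2, Mcm4 and Mcm5 lay at -0.92 to -0.94 and were not called, and Mcm2 and Mcm5 were also lost without a single library of these stages (-1 and -0.97). The mitotic genes had 0 of 17 called at this step, and most already stood under 1 FPKM in newly formed cells. With a pseudocount of 0.1 in place of 1, the count of lower genes at this step was 22. The median was then -1.11, beside -0.57 over all genes, and the share of all genes called was not computed. Cdkn1c was at 13.9 ± 3.99 FPKM in newly formed and 19.6 ± 1.39 in myelinating cells (0.49, SE 0.22, limma adjusted p = 0.0835), and it was the 1 gene of the 38 above the other types' mean in myelinating cells (1.29, SE 0.17, limma adjusted p = 9.26e-06). Pcna and Rrm1 remained detectable in myelinating cells, and Pcna was not called at either step (-0.79 and -0.15).

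**Figure D4:**
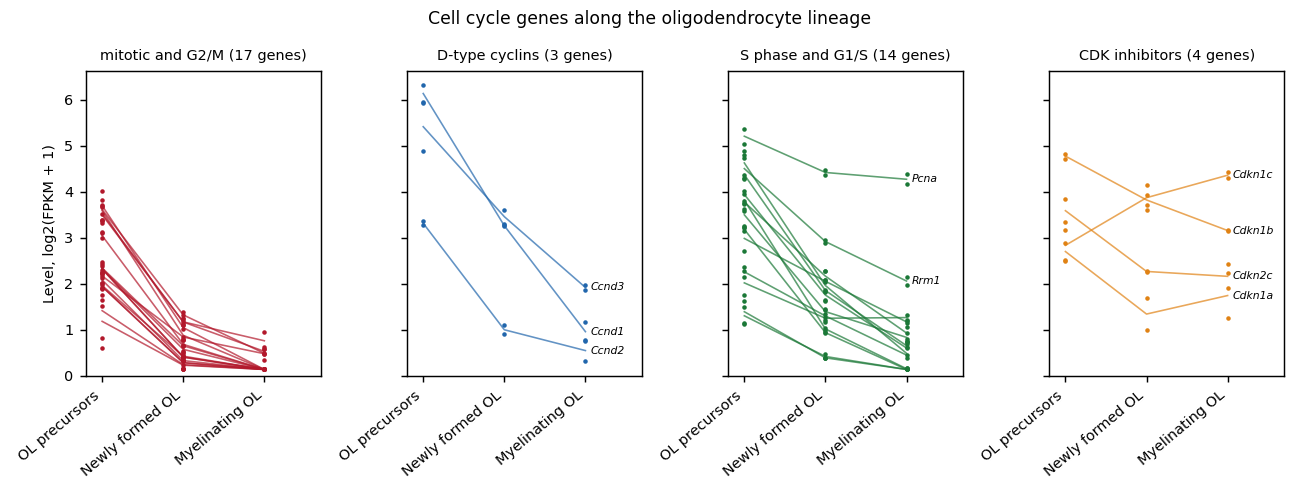
Level of each gene, as log2(FPKM + 1), in the precursor, newly formed and myelinating oligodendrocyte (OL) libraries, with a panel per role, points for libraries and lines through the means of the 2 libraries. Lines of the mitotic, S phase and D-type cyclin panels go down at the first step, while Cdkn1c goes from 6.34 FPKM in precursors to 19.6 FPKM in myelinating cells.

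The replicate libraries of several types differed from each other with transcript length, and in precursors the long genes of the list were among those that differed. Of the 5 genes with a transcript over 5000 nucleotides, Mki67, Top2a, Ccnd2, Cenpe and Cenpf, 4 were higher in replicate 1. Over the 5 the median log2 ratio of FPKM + 1, replicate 2 to replicate 1, was -1.15. Adding 1 makes this ratio smaller for low genes. Of the 33 shorter genes 25 were higher in replicate 2, with a median of 0.29. The limit of 5000 was chosen after the values were seen. Over 11445 genes with at least 1 FPKM in both libraries the correlation of log2 length with this ratio was -0.37, and over 36 of the 38 genes it was -0.47. Over all genes the same correlation was -0.47 in endothelial cells, -0.36 in newly formed oligodendrocytes and -0.28 in microglia, and 0.22, 0.19 and 0.04 in neurons, myelinating oligodendrocytes and astrocytes. Over 36 of the 38 genes it was -0.13 in endothelial cells. The part of length in the replicate difference was not tested further. The precursor libraries also held RNA of other cells. The 2 erythroid markers summed to 2082 and 169 FPKM there, to 639 and 782 in endothelial cells and to 2.05 to 330 in the other purified libraries. In the precursor libraries the 5 fibroblast markers summed to 82.5 and 150, against 0.5 to 9.08 in the other purified libraries. The 6 microglia markers summed to 384 and 200 FPKM in precursors. Astrocyte markers, 7 in all, summed to 323 and 171 FPKM there, 12.3% and 6.5% of their level in astrocytes. The 6 neuron markers summed to 73.9 and 70.6 FPKM, 6.9% and 6.6% of their level in neurons. The 5 markers of neural progenitors and neuroblasts summed to 42.5 and 30.5 FPKM, of which Eomes was at the floor in both libraries, and the 5 endothelial markers to 7.47 and 5.46. Their part in the precursor levels was not tested. The count of genes called higher in precursors was 26 to 28 when any single library was left out.

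**Figure D5:**
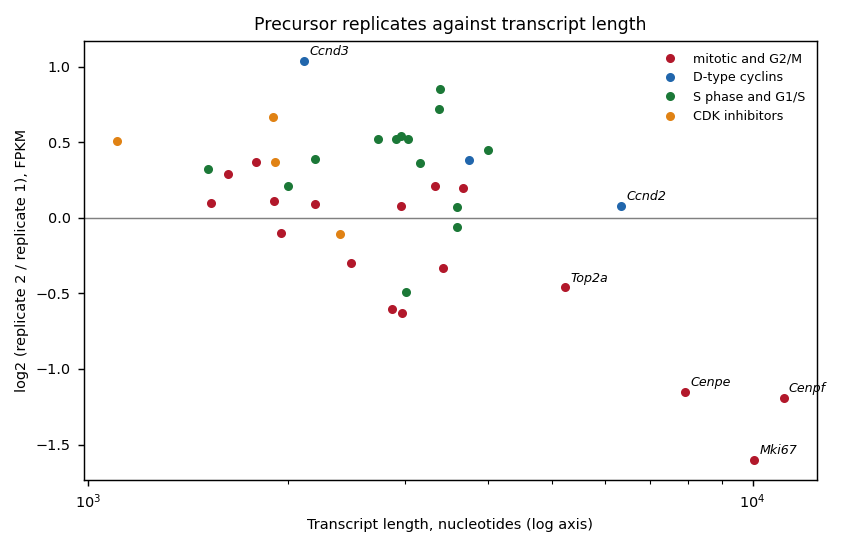
Log2 ratio of FPKM + 1 between precursor replicate 2 and replicate 1 for the 38 genes, against the length of the longest annotated transcript in nucleotides on a log axis, coloured by role. Mki67, Cenpe and Cenpf lie lowest, at -1.60, -1.15 and -1.19.

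Whole cortex, which holds cell types not purified here as well, was compared with the mean of the 7 types. In it 15 of the 38 genes were higher, against 17.3% of all genes, and 0 were lower, against 0.785%, with a median of 0.92 beside 0.31. The mean of the 7 types was taken on the log2 scale. For a gene that differs between types, such a mean lies below the log2 of the mean level. Whole cortex is a mixture, so this comparison can lean up for uneven genes, and the size of that lean was not tested. Of the mitotic genes 11 of 17 were higher, with Top2a (log2 difference 1.98, SE 0.22, limma adjusted p = 3.38e-06), Mki67 (1.93, SE 0.24, adjusted p = 9.82e-06) and Ccna2 (1.77, SE 0.20, adjusted p = 3.83e-06) leading, and Ccnd2 had the largest difference of the list (2.68, SE 0.13, adjusted p = 1.11e-09). The mean of whole cortex was above that of every purified type for 6 genes, of which 5 are mitotic and 1, E2f1, belongs to S phase. E2f1 was at 6.11, 6.15 and 4.82 FPKM in whole cortex and at most 4.19 in any purified library (log2 difference 1.04, SE 0.13, limma adjusted p = 1.00e-05), and not called with median-of-ratios scaling (0.89) or without whole cortex replicate 1 or 2 (0.99 each). The count of higher genes was 9 without whole cortex replicate 3, the library highest in Mki67, with values of 0.88 to 0.99 for the 7 genes lost then. Markers of neural progenitors and neuroblasts summed to 75.7 to 90.7 FPKM in whole cortex, with none at the floor, and the 3 ependymal markers to 10.4 to 13.0 FPKM. Astrocyte replicate 2 held 9.93 FPKM of the ependymal markers and replicate 1 held 1.94, against at most 4.56 in the other purified libraries. The part of such RNA in the astrocyte levels was not tested. The progenitor and neuroblast markers were as high in the neuron libraries, at 110 and 82.0 FPKM with none at the floor, where the mitotic sums were low. Their part in these levels was not tested.

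Other genes of replication and mitosis were also often higher in precursors, in lists chosen with earlier results of these data known, while other regulators were near the share of all genes. Of 27 other replication genes tested 15 were higher and 0 lower in precursors, beside 16.3% and 2.3% of all genes, led by Prim1, a primase subunit (1.82, SE 0.21, limma adjusted p = 4.55e-06), and Lig1, DNA ligase I (1.63, SE 0.16, adjusted p = 1.28e-06). Of 41 other mitotic genes 27 were higher and 0 lower, led by Racgap1, a regulator of cytokinesis (2.39, SE 0.20, adjusted p = 2.72e-07), and Ube2c (2.35, SE 0.27, adjusted p = 5.32e-06). At the step to newly formed cells 20 of the 27 and 38 of the 41 were lower, beside 18.4% of all genes. The 1 mitotic gene higher at that step was the cytokinesis scaffold anillin, Anln, which was also above the other types' mean in myelinating oligodendrocytes (3.24, SE 0.24, limma adjusted p = 4.37e-08). Of 31 other regulators of the cycle 6 were higher and 2 lower in precursors, with a median log2 difference of 0.29 beside 0.34 over all genes.

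Among these regulators endothelial cells had 10 of 31 higher and 1 lower, beside 18.5% and 18% of all genes, with the INK4 inhibitor Cdkn2b at the largest difference (4.87, SE 0.15, limma adjusted p = 1.01e-12) and Ccng2, an atypical cyclin, next (3.07, SE 0.12, adjusted p = 9.77e-12). Cdk1, the mitotic kinase, was at 18.1 ± 1.58 FPKM in endothelial cells and 6.09 ± 1.25 in precursors (endothelial difference 2.91, SE 0.24, adjusted p = 5.19e-08). In microglia 8 of 31 regulators were higher and 6 lower, beside 15.2% and 28.1% of all genes, with Btg2, an antiproliferative gene (3.98, SE 0.25, limma adjusted p = 2.89e-09), and the stress gene Gadd45b (3.74, SE 0.28, adjusted p = 1.81e-08) leading. Cdt1, which loads the MCM helicase, was the 1 replication gene of 27 higher in microglia (2.77, SE 0.20, limma adjusted p = 1.23e-08). In astrocytes 10 of 31 were higher and 2 lower, beside 17.5% and 13.6% of all genes, with Rb1, the retinoblastoma gene, first (2.7, SE 0.31, limma adjusted p = 3.43e-06) at 44.8 FPKM, beside a mean of at most 12.3 FPKM in any other purified type.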

How the data were processed

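Polyadenylated RNA of 17 libraries was sequenced, and the deposited tables hold gene and isoform FPKM, with a floor of 0.1. Per the submitters' processing notes the tools include Cufflinks 1.3.0, TopHat 1.3.3 with Bowtie 0.12.7, and CASAVA, and the build is mm9. Their settings are not given in the sources used here. Groups were taken from the labels. The 38 genes and all other lists were chosen with earlier results of these data known. Genes with at least 1 FPKM in at least 2 libraries were tested on log2(FPKM + 1) with limma 3.58.1 in R 4.3.3, in 1 fit with a mean per group and a variance trend. The p-values were adjusted by Benjamini-Hochberg over all 14011 genes tested. A gene was higher than each other type when the largest of 6 one-sided p-values, adjusted likewise, was under 0.05 and every log2 difference was at least 1. The step was tested on simulated data. No counting interval is given because the depth of the libraries is not known. Promoters came from RefSeq on GRCm38.p6, and gene models from GENCODE M21; neither is the build of the tables, so they were used for sequence, length and overlap only. Python 3.11.15, numpy 2.4.6, pandas 2.3.3 and matplotlib 3.10.9 were used for the rest. Genes given in full were fixed by role, together with at most 6 called genes per direction in each comparison and at most 4 from each other list. A few further genes were named after their values were seen, among them Uhrf1, Tyms, E2f1, Cdk1 and Cenpf. Alternatives were another pseudocount, other filters, 2 rescalings of the libraries, a block for replicate number, a prior variance without trend, a larger difference and leaving out each library.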

Additional observations from a re-analysis of the deposited data

How the results depend on the processing

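With 2 libraries per type and unknown depth, genes near 1 FPKM limit what could be called. Over 281 pairs of gene and comparison, which cover the genes named with a two-sided test, 0 of 6699 values under an alternative had the other direction. Nearly all of these pairs were picked because they were called in the reported fit, so a change of direction was unlikely from the outset. Of the 6699 values 162 were called otherwise than in the reported fit. The share of all genes called was not computed under the alternatives, so the counts given here have no such share beside them. A pseudocount of 0.1 moved the median of all genes from 0.02 to 0.13 in astrocytes and from 0.31 to 0.51 in whole cortex. The median of the 38 genes moved from 0.46 to 0.91 and from 0.92 to 1.45. With this pseudocount the count of the 38 genes higher was 15 in astrocytes, 4 in neurons and 27 in whole cortex. The count lower was then 11 in newly formed oligodendrocytes, 17 in microglia and 22 at the step to myelinating cells, and 1 gene was higher in precursors than in each type. That last count was also 1 with no filter and with median-of-ratios scaling. Median-of-ratios scaling moved the median of all genes from 0.34 to 0.06 in precursors, from -0.60 to -0.32 in myelinating oligodendrocytes and from -0.38 to -0.02 at the step between the oligodendrocyte stages. Relative to that, it left 1 gene higher in neurons, 5 lower in microglia, 9 higher in whole cortex and 0 in endothelial cells against each type. At the step to myelinating cells it gave 1 higher and 3 lower. At a common sum of FPKM 3 genes were lower in neurons and 0 were higher in newly formed cells than in precursors. The labels tie no source to a replicate number, and 7 of 28 correlations of deviations between same-numbered libraries were over 0.1 (range -0.25 to 0.73). Same-numbered libraries did deviate together in precursors and newly formed oligodendrocytes (0.73), and in microglia with each of these (0.46 and 0.41). A replicate block left the step between precursors and newly formed cells at 30 lower and 1 higher. It gave 9 genes higher in whole cortex, whose replicate 3 is the only library with that number and so drops out of the blocked fit. With a log2 difference of at least 2, astrocytes had 1 higher and 1 lower, neurons 0 and 1, precursors 6 and 0, myelinating oligodendrocytes 0 and 6, and microglia 1 and 0. Endothelial cells then had 3 higher, newly formed oligodendrocytes 1 lower and whole cortex 1 higher. The step from precursors had 0 higher and 14 lower, and the next step 1 lower, while precursors and endothelial cells had 0 genes above each type. Leaving out 1 library gave 4 to 9 higher in astrocytes, 1 to 3 higher and 4 to 6 lower in neurons, 4 to 8 lower in newly formed cells, 5 to 13 lower in microglia and 9 to 18 higher in whole cortex. It gave 0 to 5 genes above each type in precursors, 0 to 1 in endothelial cells, 0 to 1 higher at the first lineage step and 5 to 7 lower at the next. The causes of these changes were not tested.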
